A study of Mus musculus with 6 samples.

Results

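The genes described are 10 G-protein-coupled receptors of pancreatic islets, chosen by name and matched by Ensembl gene ID: the incretin and glucagon receptors Glp1r, Gipr and Gcgr, the lipid receptors Ffar1 and Gpr119, the muscarinic receptor Chrm3, the adrenoceptor Adra2a, the somatostatin receptors Sstr2 and Sstr3, and the galanin receptor Galr1. They are 10 of 56980 gene IDs in the count table, and all 10 passed the filter on low counts, as did 18558 genes in all. The 3 knockout libraries hold whole-islet RNA of 14-week-old mice of the genotype SSBP3F/F; MIP-CreER, in which the mouse insulin promoter (MIP) drives a tamoxifen-inducible Cre recombinase meant for beta cells. The 3 control libraries come from littermates of the genotype SSBP3F/F, so floxed Ssbp3 alleles are shared by both groups. No library with MIP-CreER and unfloxed Ssbp3 was analysed here, so effects of the transgene and of the deletion cannot be told apart. The labels do not say how many animals a library holds or what tamoxifen was given.

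These receptors pass signals through G proteins. Gs-coupled receptors raise cyclic AMP, which amplifies glucose-stimulated insulin secretion. Gq-coupled receptors act through phospholipase C and calcium stores, and Gi-coupled receptors lower cyclic AMP and restrain secretion. GLP-1 and GIP, the incretin hormones released by the gut after a meal, act on the beta cell through GLP1R and GIPR, and glucagon from neighbouring alpha cells acts there through GCGR and also GLP1R.

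Library totals ran from 14907641 to 93841878 counts in the knockout group and from 17587055 to 225428920 in the control group, and the shallowest library of each group is number 1. The smallest count of any receptor in any library was 42, for Sstr2 in knockout 1. Ssbp3 itself measured 52.2, 58.1 and 57.1 CPM (counts scaled to library size) in knockout 1, 2 and 3 and 65.8, 81.3 and 74.2 CPM in control 1, 2 and 3, without overlap but not called (adjusted p = 0.0581 in edgeR). A gene is called when its adjusted p over all genes tested is under 0.05 in edgeR's quasi-likelihood test. The beta-cell markers were abundant in every library, and their summed level was lower in knockout libraries (141769 to 159527 CPM) than in control libraries (188856 to 243871 CPM). That sum was mostly Ins1, Ins2 and Iapp, of which none was called (adjusted p 0.109, 0.234 and 0.469 in edgeR). Of the 10 beta-cell markers 3 fell (Mafa, Ucn3 and G6pc2) and none rose, with 30% called, beside 7.07% of all genes. The 6 delta-cell markers summed to 2123 to 2582 CPM in knockout and 3328 to 5291 CPM in control libraries. The 8 alpha-cell and 4 PP-cell markers overlapped between the groups, at 18843 to 23084 CPM in knockout and 21136 to 32499 CPM in control libraries for the alpha-cell list and at 4334 to 6082 CPM in knockout and 5348 to 8879 CPM in control libraries for the PP-cell list. Acinar markers, from the surrounding exocrine tissue, summed to 24668 to 84584 CPM in knockout and 31307 to 63155 CPM in control libraries. Duct markers summed to 968 to 1455 CPM in knockout and 1728 to 2249 CPM in control libraries, without overlap, although the duct gene Cftr was called higher (1.48 ± 0.463 CPM in knockout and 0.223 ± 0.120 CPM in control islets, adjusted p = 0.0169 in edgeR). Spp1 was the largest part of the duct difference, at 350, 732 and 823 CPM in knockout 1, 2 and 3. It measured 1158, 1481 and 1390 CPM in control 1, 2 and 3 and was not called (adjusted p = 0.0550 in edgeR). Of the 6 duct markers, Spp1 and Krt7 had negative log2 fold changes and the others positive ones, with a median of 0.17. Endothelial markers summed to 224 to 283 CPM in knockout and 196 to 220 CPM in control libraries, without overlap, and the endothelial cadherin gene Cdh5 was called higher (log2 fold change 0.51, adjusted p = 0.0481 in edgeR). The stromal, immune and Schwann-cell lists overlapped, at 106 to 148, 75.3 to 137 and 9.05 to 12.06 CPM in knockout libraries, against 105 to 189, 74.9 to 94.6 and 10.03 to 16.4 CPM in control libraries. No marker of these 10 lists was at 0 in all libraries. In bulk islets, fewer cells of a type and less RNA per cell cannot be told apart, and the part that these marker levels have in the receptor values was not tested.

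Among the 10 receptors, Gipr fell and Gcgr rose in knockout islets, and 8 were not called. The share of all tested genes called was 7.07%, with 3.72% called higher and 3.35% called lower. The 2 calls are 20% of the 10 receptors, a share that rests on few genes and was not tested. Of all genes tested, 691 were called higher and 621 lower, a split that became 613 and 829 with upper-quartile factors, which left both receptor calls in place. The median log2 fold change of the 10 was -0.01, beside -0.00 over all genes tested. The groups did not overlap for 4 of the 10 (Gipr lower, and Gcgr, Gpr119 and Chrm3 higher), beside 28.0% of all tested genes (14.0% higher, 14.1% lower). Without the shallowest library of each group, none of the 10 was called, and 124 genes were called in the whole table.

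**Figure D1:**
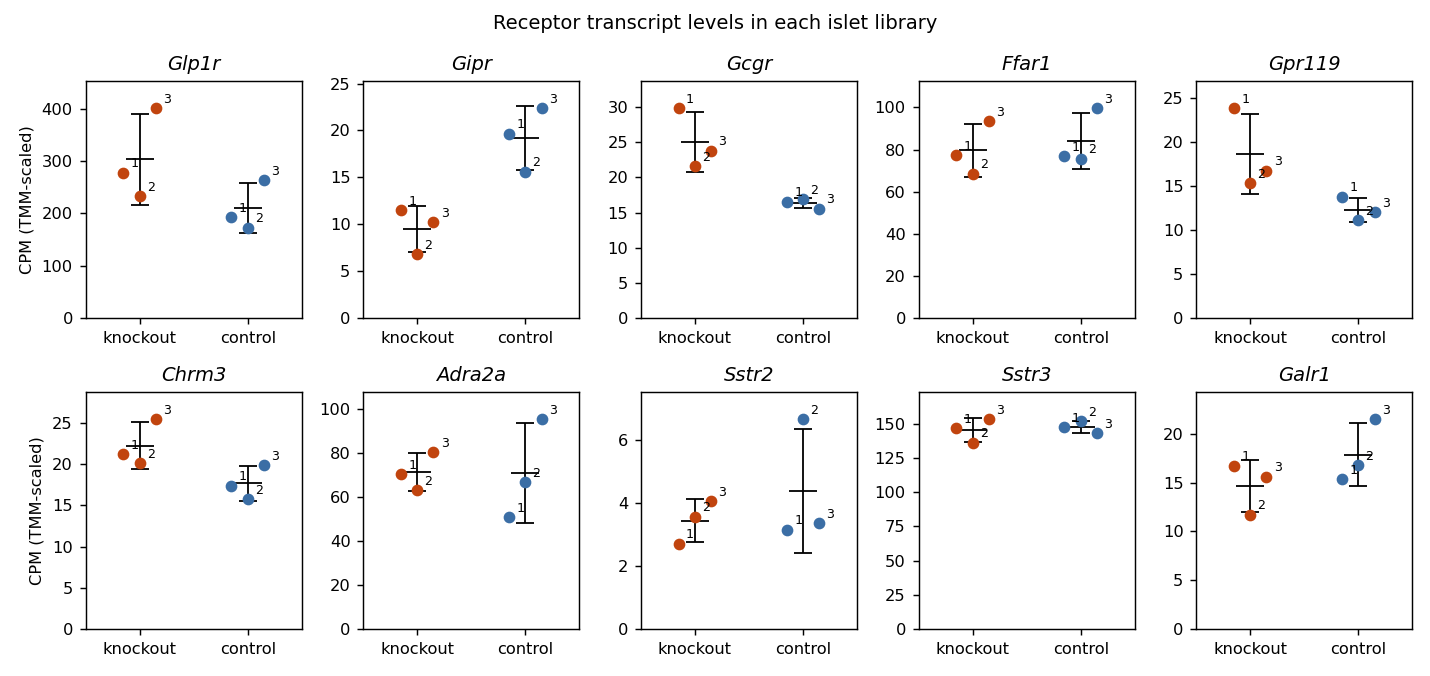
Level of each receptor gene in the 6 libraries, in TMM-scaled CPM on linear axes that start at 0. Numbered points are libraries, with knockout to the left of control, and bars give the mean ± SD (n = 3). All 3 knockout points lie below the control points for Gipr and above them for Gcgr, Gpr119 and Chrm3, and the points of the other 6 genes overlap.

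Promoters of 3 Gs-coupled receptors are shown because these 3 of the 4 genes of that class had the highest fold changes of the 10, at similar size. Of them only Gcgr was called, and Gipr of the same class fell. Windows of 300 bases, from 250 before to 50 after the annotated start, were taken from a RefSeq-based table on build GRCm38.p6, which held 8 of the 10 receptors; Gipr and Galr1 were not among them. Capitals mark each match, on either strand, to TAAT (the core that homeodomain factors bind), TGCTGA (a MAF half-site), TGACG (a half-site of the cyclic AMP response element) or CANNTG (an E-box). The windows are chr11:120530477-120530776 on the plus strand for Gcgr, chr17:30901617-30901916 on the plus strand for Glp1r and chrX:48674429-48674728 on the minus strand for Gpr119.
Gcgr: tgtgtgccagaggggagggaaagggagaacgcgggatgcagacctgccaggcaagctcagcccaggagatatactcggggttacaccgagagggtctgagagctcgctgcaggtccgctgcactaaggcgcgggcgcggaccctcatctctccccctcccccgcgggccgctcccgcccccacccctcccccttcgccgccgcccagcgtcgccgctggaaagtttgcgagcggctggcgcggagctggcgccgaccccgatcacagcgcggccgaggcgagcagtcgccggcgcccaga
Glp1r: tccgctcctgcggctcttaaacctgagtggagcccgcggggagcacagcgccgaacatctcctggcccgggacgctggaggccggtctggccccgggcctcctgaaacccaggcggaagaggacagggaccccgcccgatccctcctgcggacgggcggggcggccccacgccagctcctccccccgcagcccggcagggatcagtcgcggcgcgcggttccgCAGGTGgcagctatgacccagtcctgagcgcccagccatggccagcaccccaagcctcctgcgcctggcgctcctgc
Gpr119: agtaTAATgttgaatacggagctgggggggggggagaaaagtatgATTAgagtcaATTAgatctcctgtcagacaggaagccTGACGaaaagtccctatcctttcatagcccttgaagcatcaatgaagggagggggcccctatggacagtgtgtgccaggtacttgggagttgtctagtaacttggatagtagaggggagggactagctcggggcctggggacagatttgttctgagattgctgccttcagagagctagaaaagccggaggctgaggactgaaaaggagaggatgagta
The Gcgr window held none of the 4 motifs, the Glp1r window held 1 E-box, and the Gpr119 window held 3 TAAT cores and 1 TGACG. No base lay in 2 motifs. Among the receptor windows not shown, those of Sstr2, Sstr3 and Adra2a held TGACG and those of Ffar1 and Sstr3 held TGCTGA. Those of Ffar1, Chrm3, Sstr3 and Adra2a held E-boxes, and none held TAAT. Of 32851 windows of this length in the table, 58.0% held TAAT, 19.5% TGCTGA, 20.8% TGACG and 72.3% CANNTG. Base composition also differed between the windows. G and C made up 71.7% of the Gcgr and 73.7% of the Glp1r window, above the upper quartile of 61.7% over all windows, and 50.3% of the Gpr119 window, near the median of 52.7%. A match is a description of letters and no evidence of binding.

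Gipr (ENSMUSG00000030406, on mouse chromosome 7) encodes the receptor for GIP. It measured 11.5, 6.80 and 10.2 CPM in knockout 1, 2 and 3, against 19.6, 15.6 and 22.4 CPM in control 1, 2 and 3. The highest knockout library lay below the lowest control library. Its log2 fold change was -1.03 (SE 0.213, 95% interval -1.49 to -0.57), a 2.04-fold lower level, and it ranked 507th of 18558 genes by p (adjusted p = 0.0133 in edgeR). The call was lost without control 1 (adjusted p = 0.0545 in edgeR, log2 fold change -1.01) and without the shallowest library of each group (0.118, -1.15). Over 15 alternatives it was called in 13, with log2 fold changes between -1.17 and -0.82. The 10 beta-cell markers had log2 fold changes from -1.22 to -0.02, with a median of -0.56, and their part in the Gipr value was not tested.

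Gcgr (ENSMUSG00000025127, chromosome 11) encodes the glucagon receptor. It measured 29.8, 21.6 and 23.8 CPM in knockout 1, 2 and 3 and 16.5, 16.9 and 15.6 CPM in control 1, 2 and 3. The control libraries lay close together, and every knockout library lay above them, knockout 1 highest. The log2 fold change was 0.61 (SE 0.154, 95% interval 0.28 to 0.95), a 1.53-fold higher level (adjusted p = 0.0315 in edgeR). The call rested on each of several libraries, since it was lost without knockout 1 (adjusted p = 0.111), control 1 (0.0902), control 2 (0.0952) or control 3 (0.0755), and without the shallowest library of each group (0.191, edgeR in each case). In 10 of 15 alternatives Gcgr was called, and its log2 fold change stayed between 0.48 and 0.71.

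Glp1r (ENSMUSG00000024027, chromosome 17), the receptor for GLP-1, had the highest level per kilobase of exon of the 10 in knockout islets. It measured 278, 233 and 401 CPM in knockout 1, 2 and 3 and 193, 173 and 264 CPM in control 1, 2 and 3. Control 3 lay above knockout 2, so the groups overlapped, and the number 3 library of either group was the highest. The log2 fold change of 0.53 (SE 0.213, 95% interval 0.06 to 1.01) did not pass (adjusted p = 0.178 in edgeR). Without a filter on low counts and with the summed acinar level as a covariate it was called (adjusted p 0.00184 and 0.00765, edgeR), and the other 13 alternatives did not call it. The log2 fold change was 0.28 without knockout 3 and 0.74 without control 3 (adjusted p 0.424 and 0.0543, edgeR).

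**Figure D2:**
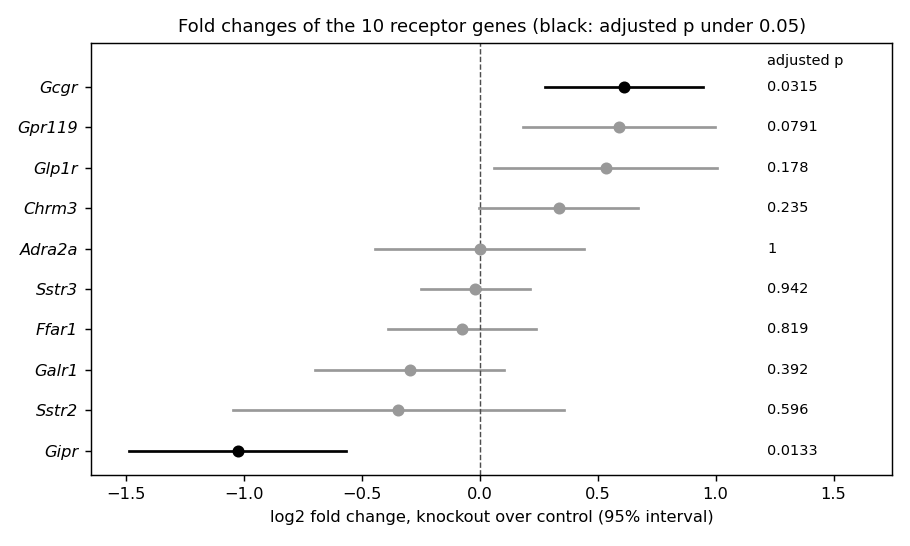
Log2 fold change of each receptor gene, knockout over control, with its 95% interval from edgeR's quasi-likelihood test, ordered by size, with the adjusted p at the right. Gipr at -1.03 and Gcgr at 0.61 are drawn in black as called; grey genes were not called.

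Library scaling cancels out of the ratio of 2 receptors in the same library, here of CPM per kilobase of exon. The Glp1r to Gipr ratio was 14.5, 20.5 and 23.5 in knockout 1, 2 and 3, against 5.89, 6.63 and 7.07 in control 1, 2 and 3. Every knockout ratio was above every control ratio. The geometric means were 19.1 in knockout and 6.51 in control islets, a log2 difference of 1.55. Of 7 such ratios compared, this one and 2 others reached an exact two-sided permutation p of 0.1, the smallest that 3 against 3 libraries allow (0.233 after Benjamini-Hochberg adjustment over the 7), so no ratio could pass 0.05. Each of these 3 ratios holds Gipr or Ffar2, genes whose own groups did not overlap, so the ratios are not independent of those fold changes. The Glp1r to Gcgr ratio had geometric means of 5.38 in knockout and 5.70 in control islets and overlapped between the groups (exact permutation p = 0.7). The Gipr to Gcgr ratio was 0.237 to 0.324 in knockout and 0.695 to 1.08 in control libraries, without overlap (exact permutation p = 0.1). The Sstr3 to Sstr2, Ffar1 to Gpr119 and Glp1r to Adra2a ratios overlapped between the groups.

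Gpr119 (ENSMUSG00000051209, chromosome X) encodes a Gs-coupled receptor for oleoylethanolamide and related lipids. It measured 23.8, 15.3 and 16.7 CPM in knockout 1, 2 and 3 and 13.8, 11.1 and 12.04 CPM in control 1, 2 and 3. The groups did not overlap, and knockout 1 stood above the other 5 libraries. The log2 fold change of 0.59 (SE 0.188, 95% interval 0.18 to 0.999) was not called (adjusted p = 0.0791 in edgeR), while DESeq2 called it (adjusted p = 0.0382), as did edgeR without a filter (0.0207). Ffar1 (ENSMUSG00000044453, chromosome 7), the Gq-coupled receptor for long-chain fatty acids, measured 77.4, 68.5 and 93.3 CPM in knockout 1, 2 and 3 and 76.8, 75.7 and 99.6 CPM in control 1, 2 and 3. These values interleave, with a log2 fold change of -0.08 (95% interval -0.39 to 0.24, adjusted p = 0.819 in edgeR), and the sign turned without knockout 2 (0.03) or control 3 (0.07).

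Ffar1 lies beside its relatives Ffar3 and Ffar2, receptors for short-chain fatty acids, in the RefSeq gene order of mouse chromosome 7. Ffar2 measured 86.0, 77.0 and 67.9 CPM in knockout 1, 2 and 3 and 42.7, 52.6 and 52.9 CPM in control 1, 2 and 3, and rose by a log2 fold change of 0.63 (adjusted p = 0.0126 in edgeR). That call was lost without knockout 1 (0.0644) or control 1 (0.0595), and without the shallowest library of each group (0.176). A predicted gene overlaps Ffar2 in the RefSeq annotation. The annotation release and strand setting of the counts were not stated, so whether its reads entered the Ffar2 count cannot be told. Ffar3 had a log2 fold change of -0.17 (adjusted p = 0.695 in edgeR). The Ffar2 to Ffar1 ratio per kilobase was 1.66, 1.68 and 1.09 in knockout 1, 2 and 3 and 0.831, 1.04 and 0.795 in control 1, 2 and 3, without overlap (exact permutation p = 0.1, the smallest possible).

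Chrm3 (ENSMUSG00000046159, chromosome 13) encodes the M3 muscarinic receptor, through which acetylcholine raises insulin secretion. It measured 21.2, 20.1 and 25.5 CPM in knockout 1, 2 and 3 and 17.4, 15.8 and 19.9 CPM in control 1, 2 and 3. The lowest knockout library was just above the highest control library. The log2 fold change of 0.33 (SE 0.155, 95% interval -0.00 to 0.67) was not called in edgeR (adjusted p = 0.235) or in any of 15 alternatives. Its relatives Chrm1, Chrm2 and Chrm4 averaged 0.342, 0.274 and 2.45 CPM in knockout and 0.467, 0.397 and 2.19 CPM in control islets, and Chrm5 had no count in any library.

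The Gi-coupled receptors showed no call. Sstr3 (ENSMUSG00000044933, chromosome 15), a somatostatin receptor of mouse beta cells, had the smallest standard error of the 10 (0.107 on the log2 scale). It measured 147, 136 and 154 CPM in knockout 1, 2 and 3 and 148, 152 and 143 CPM in control 1, 2 and 3. The 95% interval of its log2 fold change ran from -0.25 to 0.21 (adjusted p = 0.942 in edgeR). Sstr2 (ENSMUSG00000047904, chromosome 11), the main somatostatin receptor of alpha cells, had the lowest level per kilobase of the 10. It measured 2.72, 3.57 and 4.07 CPM in knockout 1, 2 and 3 and 3.16, 6.68 and 3.36 CPM in control 1, 2 and 3. Control 2 alone stood apart, and the log2 fold change of -0.35 (95% interval -1.05 to 0.36, adjusted p = 0.596 in edgeR) became 0.10 without it. Of the other somatostatin receptor genes, Sstr1 measured 1.55, 1.42 and 2.17 CPM in knockout 1, 2 and 3 and 0.621, 0.610 and 0.766 CPM in control 1, 2 and 3 (log2 fold change 1.36, adjusted p = 0.0758 in edgeR), while Sstr4 and Sstr5 were under 0.1 CPM in every library. Sst, the gene of their ligand somatostatin, fell to 2162 ± 256 CPM in knockout islets, against 3903 ± 1028 CPM in control islets (mean ± SD, n = 3 each; log2 fold change -0.85, adjusted p = 0.0223 in edgeR). The Sst call was lost without knockout 1 (0.0629), knockout 2 (0.0751), control 1 (0.0545) or control 2 (0.0880). It was also lost without the shallowest library of each group (0.164, edgeR in each case).

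Adra2a (ENSMUSG00000033717, chromosome 19) encodes the alpha2A adrenoceptor, through which adrenaline blocks insulin release. It measured 70.4, 63.1 and 80.3 CPM in knockout 1, 2 and 3 and 50.8, 66.7 and 95.5 CPM in control 1, 2 and 3. The control libraries spanned the knockout ones on both sides. The mean levels were 71.3 ± 8.63 CPM in knockout and 71.0 ± 22.7 CPM in control islets (SD, n = 3 each), and the 95% interval of the log2 fold change was -0.44 to 0.44, so changes within that span are not excluded. Without control 3 the log2 fold change was 0.28 (adjusted p = 0.319 in edgeR). Its relative Adra2b had counts of 2, 12 and 6 in knockout 1, 2 and 3 and no count in the control libraries, too few to be tested. Galr1 (ENSMUSG00000024553, chromosome 18), a receptor for the neuropeptide galanin, measured 16.7, 11.7 and 15.6 CPM in knockout 1, 2 and 3 and 15.3, 16.8 and 21.5 CPM in control 1, 2 and 3. Its groups overlapped, with a log2 fold change of -0.30 (95% interval -0.70 to 0.10, adjusted p = 0.392 in edgeR). Neither Galr2 (log2 fold change 0.25) nor Galr3 (0.13) was called (adjusted p 0.759 and 0.822 in edgeR).

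Levels of different genes were compared per kilobase of annotated exon, which treats all exons of a gene as one transcript. In knockout islets Glp1r was highest with 52.3 ± 14.9 CPM per kilobase, followed by Sstr3 with 33.7 ± 2.04, Ffar1 with 19.1 ± 3.01 and Adra2a with 14.7 ± 1.79 (SD, n = 3). Then came Gcgr at 9.56 ± 1.63, Gpr119 at 8.20 ± 2.002, Galr1 at 4.92 ± 0.886, Chrm3 at 3.56 ± 0.455, Gipr at 2.73 ± 0.699 and Sstr2 at 1.61 ± 0.319 CPM per kilobase. Neighbours in that order whose libraries overlapped were Ffar1 and Adra2a, Gcgr and Gpr119, Galr1 and Chrm3, and Chrm3 and Gipr. In control islets Glp1r with 36.1 ± 8.23 and Sstr3 with 34.1 ± 1.02 CPM per kilobase overlapped at the top, and Gcgr, Galr1, Gipr and Gpr119 overlapped in turn between 6.23 and 5.42. Gipr thus stood ninth in knockout and seventh in control islets, and Glp1r stood clear of Sstr3 in the knockout libraries alone. The control order continued with Chrm3 at 2.83 ± 0.334 and Sstr2 at 2.05 ± 0.923 CPM per kilobase, which overlapped too.

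The summed length-scaled level of all 10 overlapped between the groups, with 150, 127 and 174 CPM per kilobase in knockout 1, 2 and 3 and 124, 124 and 152 in control 1, 2 and 3. Grouped by the G protein they mainly use, the 4 Gs-coupled genes made up 48.1% ± 2.92 of that sum in knockout and 39.9% ± 2.73 in control libraries (SD, n = 3 each). Most of the Gs share was Glp1r. The 4 Gi-coupled genes made up 36.8% ± 2.75 in knockout and 42.9% ± 3.22 in control libraries, and the 2 Gq-coupled genes 15.1% ± 0.459 in knockout and 17.2% ± 0.577 in control libraries. These shares are a description of the chosen genes and were not tested. A lower share need not be a lower level, and the summed level of each class overlapped between the groups. In CPM per kilobase, the Gi sum was 50.1 to 59.3 in knockout and 51.3 to 61.7 in control libraries. The Gq sum was 19.6 to 26.4 in knockout and 20.6 to 27.0 in control libraries. The Gs sum was 57.0 to 88.3 in knockout and 45.5 to 63.1 in control libraries.

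**Figure D3:**
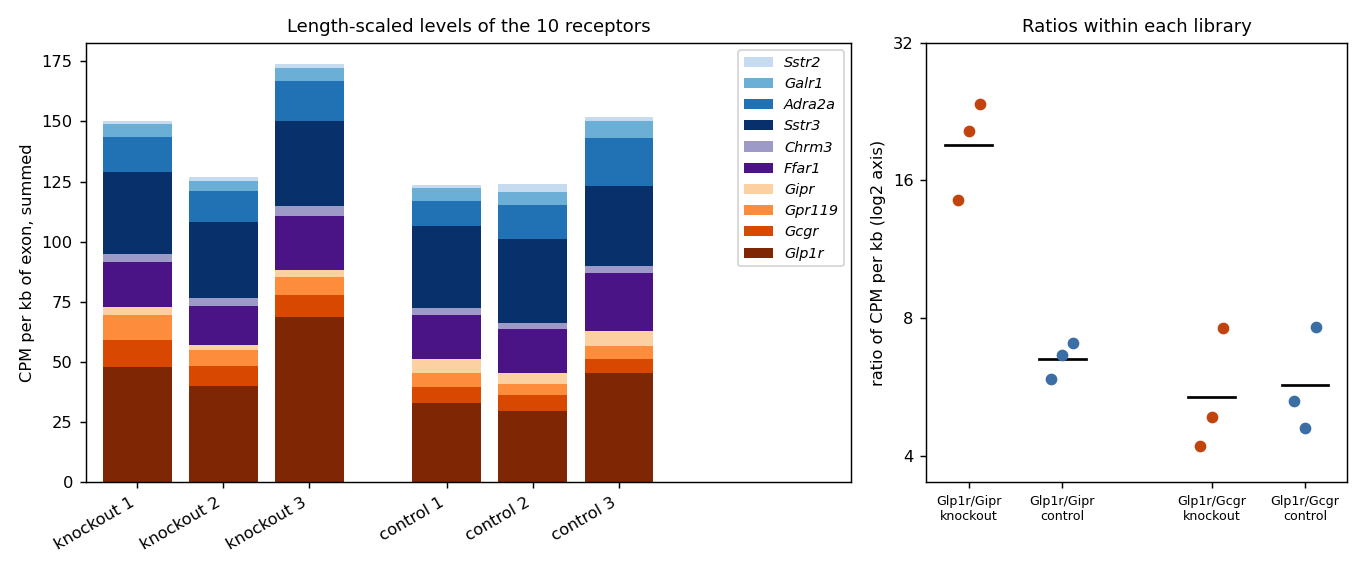
Left, CPM per kilobase of exon of the 10 receptors stacked for each library on a linear axis from 0; Gs-coupled genes are in orange, Gq-coupled in purple and Gi-coupled in blue. Right, ratios of Glp1r to Gipr and of Glp1r to Gcgr in each library (points) with geometric means (lines) on a log2 axis; the Glp1r to Gipr ratio is 14.5 to 23.5 in knockout and 5.89 to 7.07 in control libraries, and the Glp1r to Gcgr ratio overlaps.

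Of the other genes of receptor signalling, 84 of 141 other receptor genes could be tested; 4 rose and 5 fell (10.7% called, beside 7.07% of all genes), with a median log2 fold change of -0.00. Gprc5c, an orphan receptor, rose to 50.9 ± 1.27 CPM in knockout islets, against 20.6 ± 2.99 CPM in control islets, and kept its call in all 15 alternatives. Oxtr, the oxytocin receptor, fell to 8.15, 9.61 and 12.1 CPM in knockout 1, 2 and 3, against 21.8, 22.9 and 19.2 CPM in control 1, 2 and 3. P2ry1, a receptor for ADP, fell to 4.85 ± 1.70 CPM in knockout islets, against 13.8 ± 1.73 CPM in control islets (mean ± SD, n = 3 each; adjusted p 0.000178, 0.00325 and 0.00370 in edgeR for these 3). Vipr1, a receptor for VIP of the same family as Glp1r, was lower by a factor of 1.88 (adjusted p = 0.0122 in edgeR), a call lost without knockout 1 (0.0579) or control 2 (0.0555). Grm4, a glutamate receptor, had 1.20 ± 0.333 CPM in knockout and 0.0413 ± 0.0516 CPM in control islets (adjusted p = 0.00749 in edgeR). The calls of Oxtr, P2ry1, Vipr1 and Grm4 were lost without the shallowest library of each group (0.0933, 0.0803, 0.0988 and 0.0832). The other called receptors were Ffar2, described above, Ptger3 (higher), and P2ry6 and Gabbr1 (lower), of which the last 3 each lost their call without at least 3 of the single libraries (edgeR adjusted p up to 0.146). Ptger3 also lost it with upper-quartile factors (0.0592), under which 3 other receptors were called higher and 6 lower.

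Among 14 tested genes that encode ligands of the 10 receptors or enzymes that make or degrade them, 2 rose and 2 fell. That is 28.6% called, beside 7.07% of all genes. The median log2 fold change was -0.33, beside -0.00 over all genes tested. Dpp4, the protease that inactivates GLP-1 and GIP, rose to 79.6 ± 7.55 CPM in knockout islets, against 47.1 ± 4.62 CPM in control islets (adjusted p = 0.00306 in edgeR). Ddc, aromatic amino acid decarboxylase, had a log2 fold change of 0.73 (0.00660), and Pcsk1, the convertase that can cut GLP-1 from proglucagon, one of -0.68 (0.0105; lost without knockout 1 at 0.0697 or knockout 2 at 0.0549). Gcg, the source of glucagon and GLP-1, measured 21451, 17450 and 20455 CPM in knockout 1, 2 and 3 and 26267, 30449 and 19654 CPM in control 1, 2 and 3 and was not called (adjusted p = 0.375 in edgeR). None of Dpp4, Ddc and Pcsk1 was called without the shallowest library of each group (0.0765, 0.149 and 0.183).

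Downstream, 2 of 25 tested G protein subunit genes rose and none fell (8% called, beside 7.07% of all genes; median log2 fold change 0.08). The split was 1 higher and 2 lower with upper-quartile factors or without knockout 3, 3 and 1 without control 3, 3 and 0 with limma-voom, and 3 and 2 with DESeq2, the acinar covariate or no filter. The 2 that rose were Gnai2, a Gi alpha subunit, at 698 ± 47.6 CPM in knockout and 465 ± 96.6 CPM in control islets, and Gna13 (adjusted p 0.0380 and 0.0465 in edgeR). Gnai2 lost its call without knockout 1 (0.140), knockout 2 (0.0663), control 1 (0.157) or control 2 (0.164), and Gna13 without any single library but control 3 (0.0834 to 0.181) and with upper-quartile factors (0.0596). Of 27 Gs effector genes 2 fell and none rose (7.41% called; median 0.07), a split that became 2 higher and 3 lower with DESeq2, 3 and 3 with no filter, 2 and 2 given the acinar covariate, and 1 and 2 without control 3. The 2 genes that fell were the calcium-activated phosphodiesterase gene Pde1c, 2.36-fold lower, and the cyclic AMP response gene Crem, 1.54-fold lower (adjusted p 0.00334 and 0.0181 in edgeR; Crem not without knockout 1, knockout 2 or control 2, at 0.0597, 0.0550 and 0.120). Of 13 Gq effector genes only Itpr3, an IP3 receptor, was called, higher at 64.4 ± 5.16 CPM in knockout and 44.5 ± 5.65 CPM in control islets (adjusted p = 0.0246 in edgeR; lost without any single library but control 3, 0.0530 to 0.102), with 7.69% called and a list median of 0.42. The Gq split was 6 higher and 1 lower given the acinar covariate or no filter, 3 and 1 with DESeq2, 2 and 0 with limma-voom or without control 3, and 0 and 1 without knockout 3. None of 16 receptor kinase, arrestin and partner genes was called by edgeR, DESeq2 or limma-voom, beside 7.07% of all genes in edgeR. An unadjusted p under 0.05 in edgeR was reached by 0 of these 16 and by 21.6% of all genes tested. It was reached by 7 of the 25 subunit, 8 of the 27 Gs effector and 7 of the 13 Gq effector genes. Without the shallowest library of each group, no call was left in the subunit and effector lists.

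Kcnj5, which encodes the GIRK4 subunit of the potassium channel that Gi-coupled receptors open, was the 1 called gene of 4 such channel genes (25% called, beside 7.07% of all genes). It had counts of 160, 780 and 860 in knockout 1, 2 and 3 (10.3, 9.73 and 8.15 CPM) and of 0, 0 and 26 in control 1, 2 and 3, the last at 0.117 CPM. The groups are far apart, and the call held in all 15 alternatives (adjusted p = 0.000211 in edgeR, range up to 0.0217), with a fitted log2 fold change of 7.05 that ran from 6.54 to 12.1 with the alternative. Kcnj6, another subunit of these channels, had a log2 fold change of 0.66 and Kcnj3 of -0.62, neither called (adjusted p 0.318 and 0.324 in edgeR).

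**Figure D4:**
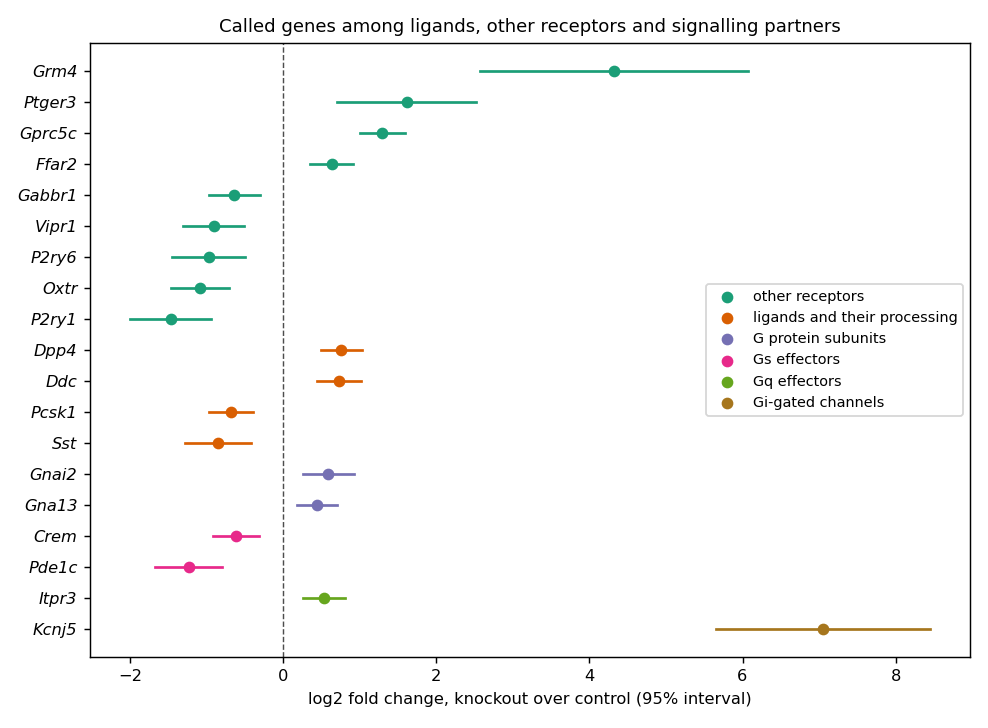
Log2 fold changes, knockout over control, with 95% intervals for the 19 called genes among other receptors, ligands and their processing, G protein subunits and effectors, coloured by list. Kcnj5 lies farthest to the right at 7.05, and 9 of the 19 are other receptors.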

How the data were processed

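Whole-islet RNA of 3 knockout and 3 control samples was sequenced. Per the submitters' processing notes, the tools were featureCounts, STAR 2.7.3a, Trim Galore 0.6.7 and FastQC 0.11.9, with the build GRCm39 (mm39). The annotation release and the strand and read-pair settings were not stated in the labels. The authors deposited raw whole-number counts per Ensembl gene ID. Between 62.3% and 73.2% of nonzero counts per library were even, so a count may be less than a fragment. Columns name the group, not the sample, and libraries are numbered after them. Whether libraries are separate animals is not stated, so p-values reflect library-to-library spread that may be technical. Same-group libraries had Pearson correlations of 0.9458 to 0.977 of log2 CPM across genes, and no pair differed by so little as sampling noise (lowest mean chi-square over genes 38.0).

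The test was run with edgeR 4.0.16 under R 4.3.3 (filterByExpr, TMM factors, quasi-likelihood test with robust shrinkage), with Benjamini-Hochberg adjustment over 18558 genes and a threshold of 0.05; CPM uses TMM-scaled library sizes. SE and intervals derive from that test. Gene symbols were assigned by gene ID from a list of gene names, and 2 listed symbols had no match. Exon lengths (union of exons) come from GENCODE M21 on GRCm38, also by gene ID. None of the 10 receptors shares exon bases with another gene model there. Exact permutation tests enumerate all splits of 6 libraries. The receptors, lists and naming rule (called list genes, the 6 with the smallest p in longer lists, ligands and paralogs) were chosen with earlier results of these data known; Ptger3, P2ry6, Gabbr1, Kcnj3, Kcnj6, Chrm2, Sstr4, Cftr and Cdh5 were picked with their values in view. The 15 alternatives used other scalings, filters, DESeq2 1.42.0, limma-voom (limma 3.58.1), an acinar covariate or fewer libraries.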

Additional observations from a re-analysis of the deposited data

How the results depend on the processing

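The sample titles share 1 number between the groups and are not tied to the columns, but column names number both groups 1 to 3. A fit with that number as a replicate block was chosen after the data were seen. Same-numbered libraries' deviations from their group means correlated at 0.016, 0.081 and 0.066 across genes for numbers 1, 2 and 3. That is too weak to treat the libraries as pairs. Each library correlated best with its own number, a hint from the data and not the design. Library totals also rose from number 1 to 3 in both groups, and the part of depth in these correlations was not tested. With the block, calls were 2105 for all genes, 4 for the receptors (Glp1r and Gpr119 added, adjusted p 0.00803 and 0.0293 in edgeR), 12 for other receptors and 5 each for subunits, Gs and Gq effectors, and the log2 fold change of Adra2a was 0.036. Over 6 single-library omissions, calls ran from 0 to 2 for the 10 receptors (0 without control 1; 1 without knockout 1, control 2 or control 3), 519 to 1309 for all genes, 4 to 9 for other receptors, 2 to 4 for ligands and their processing, 0 to 4 for G protein subunits, 1 to 3 for Gs effectors and 0 to 2 for Gq effectors. Without the shallowest library of each group the counts were 124 for all genes, 1 for other receptors (Gprc5c) and 0 for the receptors, ligands, subunits, Gs and Gq effectors. Without a filter they were 2153 (28937 genes tested), 4 for the receptors, 15 for other receptors, 5 for subunits, 6 for Gs and 7 for Gq effectors. With DESeq2 they were 2043, 3, 15, 5, 5 and 4 in that order of lists, with the acinar covariate 2031 for all genes, 3 for the receptors, 5 for subunits, 4 for Gs and 7 for Gq effectors, and with limma-voom 2 for Gq effectors. Some of these settings used fewer libraries or another set of tested genes, and the cause of the differences was not tested.

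Of the 10 receptors, 6 kept the sign of their fold change in all 15 alternatives. The log2 fold change of Adra2a, near 0, turned to 0.0081 with DESeq2 size factors, 0.0051 with library sizes free of hormone and acinar genes, 0.011 without a filter, 0.010 with DESeq2 and 0.011 with the acinar covariate, and lay between -0.19 and 0.28 without single libraries. Without single libraries it ran from -0.21 to 0.075 for Ffar1, -0.52 to 0.098 for Sstr2 and -0.061 to 0.032 for Sstr3.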
